A study of Mus musculus with 13 samples.

Results

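This account covers 10 transcripts of the CC chemokine system in RNA sequencing data of mouse mammary tumors: the ligands Ccl2, Ccl5, Ccl6, Ccl7, Ccl8, Ccl19, Ccl20 and Ccl21a and the receptors Ccr2 and Ccr7. They were chosen by gene symbol, with earlier results of these data known. All 10 were among the 15213 genes listed in the deposited table. The tumors were 10 mammary carcinomas from 6 double-transgenic females (labelled MtTA Teto-TSG101wt), in which MMTV-tTA, active in luminal mammary epithelium, drives a TetO-Tsg101 transgene in the absence of doxycycline. The controls were mammary glands of 3 wild-type FVB females, which carried neither transgene and received the same extraction of total RNA from flash-frozen whole tissue. According to the study's methods, the transgenic lines were also kept on an FVB/N background. Of the 6 tumor-bearing females, 3 gave 1 tumor each, 2 gave 2 tumors (tumors 2 and 3, tumors 5 and 6) and 1 gave 3 tumors (tumors 8, 9 and 10), so that the tumors were not all independent samples. The ages and reproductive stages of these females are not given in the sources used here.

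CC chemokines are small secreted proteins with adjacent cysteines near the amino terminus that attract leukocytes through G protein-coupled receptors. CCL2, CCL7 and, in the mouse, CCL12 act on CCR2 and call monocytes out of the bone marrow and into tissue, where monocytes can become macrophages. CCL19 and CCL21, made by stromal cells of lymph nodes and by lymphatic endothelium, guide naive T cells and mature dendritic cells that carry CCR7. CCL5 is made by activated T cells and natural killer cells among others and acts on CCR1 among other receptors, CCL6 and CCL8 are products of myeloid cells, and CCL20 of epithelia is the ligand of CCR6. A mammary fat pad of the mouse can hold a lymph node, so that a dissected gland can contain lymphoid tissue, and for this reason the tumors were compared with each gland separately as well as with all of them.

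The libraries held 6176269 to 16835397 reads in the tumors and 11672487 to 23889042 reads in the glands. All levels below are normalized cpm, reads scaled by the effective size of each library. The value of 3 reads, up to which a transcript may lie when no read of it is found, lay between 0.141 and 0.683 in the tumors and between 0.128 and 0.366 in the glands. Such limits cover counting error only. Tsg101 was at 45.6, 53.0 and 61.0 in the glands and between 49.9 and 101.3 in the tumors (median 63.4), a log2 difference of 0.30 (SE 0.20, adjusted p = 0.279, limma). This row does not separate the transgene from the endogenous gene. The sums of 8 epithelial markers (1886 to 2697 in the tumors, 1020 to 2157 in the glands) and of 6 adipocyte markers (11.99 to 369 in the tumors, 3201 to 10690 in the glands) were compared with the labels. The adipocyte sums separated the tissues as labelled, whereas the epithelial sum of gland 2 (2157) lay within the range of the tumors. Tumor 9 and gland 3 stood apart, with totals of normalized values of 1407402 and 1422955 against 790314 to 1105222 in the others, and a call that changed without both is given below. The ribosomal precursor Rn45s took 27.4% of the reads in tumor 9 and 9.32% in tumor 6, against 0.296% to 4.35% in the others, and its part in the results was not tested. The labels name the UNMC core facility and Novogene for sequencing without saying for which libraries, so that no batch could be assigned and a difference in site between tumors and glands was not tested.

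Across the 10 transcripts, 4 fell in the tumors and none was called higher when all glands formed the control group. The call required an FDR below 0.05 in limma over all listed genes and a change of more than 2-fold. Ccl5, Ccl19, Ccl21a and Ccr7 were the 4 that fell, against a background of 10.1% of all genes called lower and 10.5% called higher. The median log2 difference over the 10 transcripts was -0.81, against 0.01 over all genes. Because the 10 were chosen with earlier results of these data known, these comparisons with all genes describe the list and do not test it. At an unadjusted p below 0.05, 3 of them were higher (Ccl2, Ccl7 and Ccl8) and 5 were lower, where 20.8% of all genes were higher and 20.8% lower. On the recovered reads, edgeR also called 0 higher and 4 lower, whereas DESeq2 called 2 higher (Ccl2 and Ccl7) and 4 lower. With 1 mean per mouse, 2 were called higher (Ccl2 and Ccl7) and 2 lower (Ccl5 and Ccl21a). Leaving out gland 1 left only Ccl5 called lower.

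**Figure D1:**
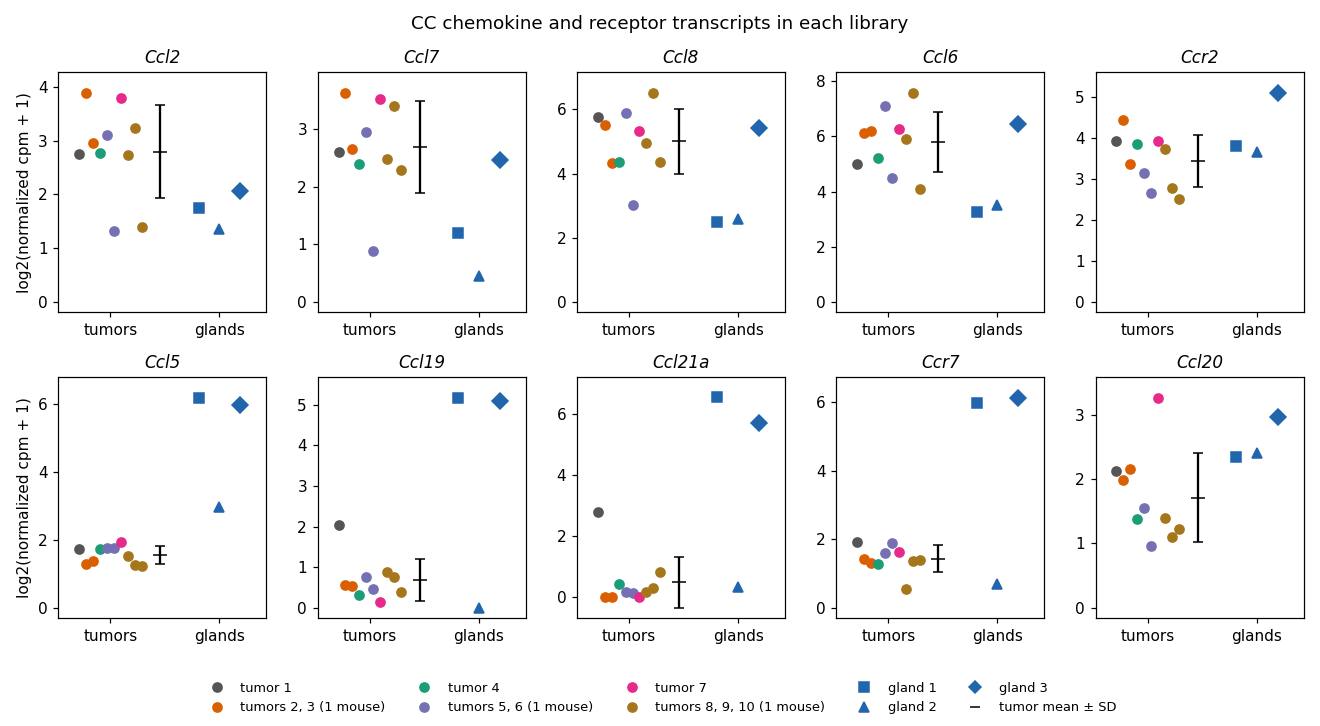
Level of each of the 10 transcripts in every library, as log2(normalized cpm + 1) on the vertical axis. Circles are tumors, coloured by mouse, the bar is the tumor mean with its SD, and blue symbols are the 3 glands. Ccl5, Ccl19, Ccl21a and Ccr7 are high in glands 1 and 3, whereas gland 2 has at most 6.71 normalized cpm of any of them.

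The glands did not form a uniform baseline for these genes. Against gland 1 alone, 4 transcripts were called lower in the tumors and 0 higher, where 9.09% and 8.06% of all genes were called. Against gland 3 alone, the counts were again 4 lower and 0 higher, with 8.17% and 7.49% of all genes called. Against gland 2 alone, only Ccl5 was called lower and 0 were called higher, with 7.05% and 7.08% of all genes called. The transcripts called lower against glands 1 and 3 were the same 4 as against all glands. At an unadjusted p below 0.05, 2 were higher and 4 lower against gland 1 (15.7% and 16.6% of all genes). The counts were 3 and 1 against gland 2 (15.2% and 15.5%) and 0 and 5 against gland 3 (14.7% and 14.9%). Each of these tests has a single gland in its control arm, which is assumed to vary like the tumors, and the 3 tests share the same 10 tumors.

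**Figure D2:**
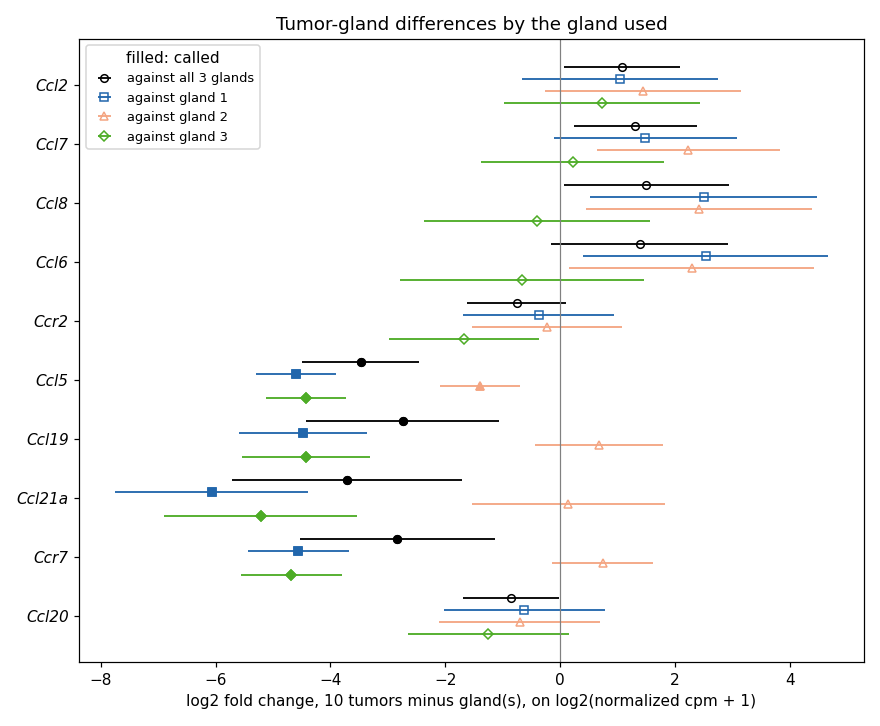
Log2 difference of the 10 tumors from all 3 glands and from each gland alone, with 95% intervals, for the 10 transcripts; filled symbols passed the call. For Ccl19, Ccl21a and Ccr7 the differences from glands 1 and 3 lie between -6.07 and -4.42, whereas those from gland 2 lie between 0.14 and 0.74.

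The lymphoid ligands Ccl19 and Ccl21a lie next to each other on chromosome 4. Both genes are on the minus strand within 19.5 kb (GRCm38.p6, mm10), Ccl19 at 42754525 to 42756365 and Ccl21a at 42772860 to 42773991. Their promoters, from 250 bases before to 50 bases after the annotated start, are shown because the transcripts from them were high and low in the same glands. Sequences here are those of RefSeq for GRCm38.p6, where 6 of the 10 genes were matched and Ccl2, Ccl5, Ccl7 and Ccr7 were not. They are written 5′ to 3′ on the strand of the gene in lower case, and capitals mark a match to one of the motifs TATAAA, GAAANNGAAA (N is any base) and the consensus of NF-kB, searched on both strands.
Ccl19 (chr4:42756316-42756615, minus strand): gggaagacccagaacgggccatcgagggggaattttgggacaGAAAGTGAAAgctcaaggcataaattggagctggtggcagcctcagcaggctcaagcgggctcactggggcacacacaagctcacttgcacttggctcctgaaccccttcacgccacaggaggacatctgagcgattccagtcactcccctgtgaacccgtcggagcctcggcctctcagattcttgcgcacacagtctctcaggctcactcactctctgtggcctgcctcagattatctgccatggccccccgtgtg
Ccl21a (chr4:42773942-42774241, minus strand): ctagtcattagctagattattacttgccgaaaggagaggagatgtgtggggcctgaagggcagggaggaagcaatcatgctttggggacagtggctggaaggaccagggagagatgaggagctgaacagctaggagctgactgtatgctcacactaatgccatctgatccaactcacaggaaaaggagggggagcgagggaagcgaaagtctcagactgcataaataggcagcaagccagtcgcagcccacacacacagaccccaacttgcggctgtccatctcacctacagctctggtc
The window of Ccl19 held GAAANNGAAA, the core spacing of an interferon-stimulated element, 208 bases before the start, and that of Ccl21a held none of the 3 motifs. Of all 32851 RefSeq promoters of this length, 3.44% held GAAANNGAAA, 13.6% held TATAAA and 4.51% held the NF-kB consensus. A match of letters is a description of the window only.

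Ccl19 was far higher in glands 1 and 3 than in gland 2 or any tumor. Its level in tumors 1 to 10 was 3.12, 0.473, 0.450, 0.235, 0.684, 0.378, 0.105, 0.824, 0.683 and 0.296. In glands 1 to 3 it was 34.8, 0.00 and 33.4. Gland 2 had 0 reads of it, and 3 of the tumors had 3 reads or fewer. The mean was 0.725 ± 0.871 (SD, n = 10) in the tumors, 47.98-fold below gland 1 and 46.1-fold below gland 3. Tumor 1 was the highest of the tumors with 52 reads, more than 3 times the level of the next. The groups overlapped through gland 2 alone, against which the tumor mean was at least 4.67-fold higher, taking 3 reads as the limit for gland 2. Without tumor 1 the mean was 0.459 ± 0.235 (SD, n = 9), which is 75.8-fold below gland 1, 72.9-fold below gland 3 and at least 2.96-fold above gland 2. The log2 difference was -2.74 (SE 0.78, adjusted p = 0.0153) against all glands and 0.68 (SE 0.52, adjusted p = 0.387) against gland 2.

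Ccl21a showed the same split with a larger range. Its level in tumors 1 to 10 was 5.82, 0.00, 0.00, 0.329, 0.114, 0.0944, 0.00, 0.118, 0.228 and 0.741. Glands 1 to 3 were at 92.2, 0.258 and 50.5. No read was found in 3 tumors, 7 tumors had 3 reads or fewer, and tumor 1 with 97 reads stood above the others. The tumor mean of 0.744 ± 1.80 (SD, n = 10) was 124-fold below gland 1 and 67.8-fold below gland 3, whereas gland 2 had 5 reads and lay within the range of the tumors. Without tumor 1 the mean was 0.180 ± 0.238 (SD, n = 9), 511-fold below gland 1 and 279.8-fold below gland 3. The log2 difference was -3.71 (SE 0.94, adjusted p = 0.00742) against all glands and 0.14 (SE 0.78, adjusted p = 0.917) against gland 2.

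Reads of Ccl21a cannot be fully told apart from those of its copies. Of the 796 windows of 75 bases, the read length, in its GENCODE transcript, 488 (61.3%) also occurred in a transcript of a copy. Of the copies listed here, Ccl21b shared 22.4% of the windows and Gm13304 60.2%, and no share was computed for Ccl21d. The values listed for Ccl21a, Ccl21b and Gm13304 are therefore uncertain one by one. Summed over the 4 genes Ccl21a, Ccl21b, Ccl21d and Gm13304, the level was 117, 0.258 and 78.1 in glands 1 to 3. It was 9.36 in tumor 1 and at most 1.04 in the other tumors. The sum was called lower as well, so that the split between the copies did not set the call.

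The receptor Ccr7 followed the same glands (chromosome 11, 99144199 to 99155077). Its level in tumors 1 to 10 was 2.76, 1.65, 1.46, 1.41, 2.05, 2.74, 2.10, 0.471, 1.59 and 1.63. In glands 1 to 3 it was 62.9, 0.620 and 68.5. The tumors, from 0.471 in tumor 8 to 2.76 in tumor 1, averaged 1.79 ± 0.673 (SD, n = 10) and lay 35.2-fold below gland 1 and 38.3-fold below gland 3. Gland 2, with 12 reads, lay below 9 of the 10 tumors. The log2 difference was -2.84 (SE 0.79, adjusted p = 0.0135) against all glands and 0.74 (SE 0.41, adjusted p = 0.239) against gland 2. The calls of Ccl19 and Ccr7 were lost without gland 1 (log2 differences of -1.87 and -1.97) and without gland 3 (-1.90 and -1.91), and that of Ccl21a without gland 1 (-2.54). Leaving out tumor 9 and gland 3 together gave -1.91, -1.90 and -2.95 for Ccl19, Ccr7 and Ccl21a, none of them called. With 1 mean per mouse, Ccl19 (-2.70, adjusted p = 0.0698) and Ccr7 (-2.77, adjusted p = 0.0634) were not called either, and Ccr7 lost its call when the mouse that gave tumors 8, 9 and 10 was left out (-2.69, adjusted p = 0.0504).

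Ccl5 was the transcript that fell against every gland. It lies on chromosome 11 at 83525778 to 83530518. Its level in tumors 1 to 10 was 2.28, 1.42, 1.57, 2.30, 2.39, 2.36, 2.83, 1.88, 1.37 and 1.33. Glands 1 to 3 were at 70.3, 6.71 and 61.9. All 10 tumors lay below all 3 glands, as 10.3% of all genes did, although gland 2 was closer to the tumors than to the other glands on the log2 scale. The tumor mean of 1.97 ± 0.529 (SD, n = 10) was 35.6-fold, 3.40-fold and 31.4-fold below glands 1, 2 and 3. The log2 difference was -3.48 (SE 0.48, adjusted p = 6.76e-05) against all glands, and -1.40 (SE 0.32, adjusted p = 0.0114) against gland 2. With a pseudocount of 5 in place of 1, the difference from gland 2 was -0.75, less than 2-fold on that scale, and was not called. Ccl5 kept its call when any 1 library was left out, with differences between -4.51 and -2.91.

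Markers of lymphocytes differed between the glands in the same way, whereas those of vessels did not. The summed level of 8 B cell markers was 328 in gland 1, 4.80 in gland 2, 314 in gland 3 and 1.78 to 128 in the tumors, with tumor 1 the highest. The sum of 8 T cell markers was 458, 27.1 and 429 in the glands and 15.7 to 47.6 in the tumors, again with tumor 1 the highest. Of these lists, 6 B cell markers and 7 T cell markers were called lower in the tumors and none higher, where 10.1% and 10.5% of all genes were. Cxcl13, a chemokine of lymph node follicles, was at 58.1, 0.00 and 43.3 in glands 1 to 3. The addressin Madcam1 of high endothelium was at 9.51, 17.7 and 10.2, so that it was not low in gland 2. The sum of 4 listed markers of lymphatic endothelium was 28.9, 35.7 and 13.3 in glands 1 to 3 and 5.04 to 13.4 in the tumors, with 1 called lower. The sum of 5 endothelial markers was 453.5, 454.4 and 167 in the glands and 39.0 to 93.0 in the tumors, with 4 called lower. The part of lymphoid tissue and of vessels in the differences of Ccl5, Ccl19, Ccl21a and Ccr7 was not tested. In bulk tissue, fewer cells of a type and less RNA per cell cannot be told apart.

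Set against the T cell markers, the transcripts differed from each other. Per 100 normalized cpm of the T cell sum, Ccl5 was at 15.3, 24.8 and 14.4 in glands 1 to 3 and at 4.79 to 12.1 in the tumors (median 7.75), so that every tumor was below every gland by this measure too. Ccr7 was at 13.7, 2.29 and 15.96 in the glands and at 3.01 to 11.6 in the tumors, between gland 2 and the others. Ccl19 was at 7.59, 0.00 and 7.78 in the glands and at 0.446 to 6.55 in the tumors. Ccl21a was at 20.1, 0.952 and 11.8 in the glands and at 0.00 to 12.2 in the tumors, where tumor 1 reached the ratio of gland 3. The ratios are descriptions without a test.

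**Figure D3:**
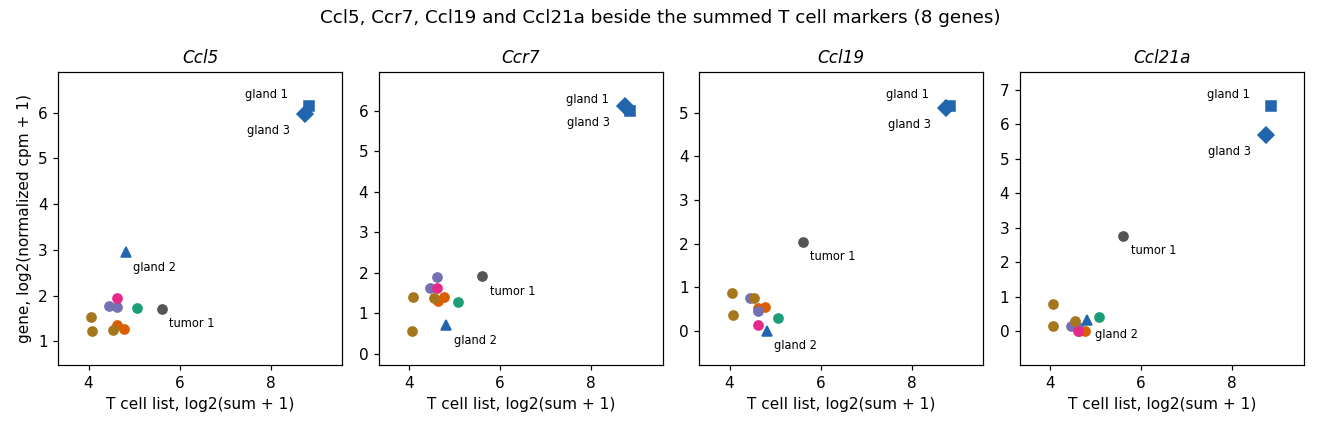
Level of Ccl5, Ccr7, Ccl19 and Ccl21a (vertical axes, log2(normalized cpm + 1)) against the summed level of 8 T cell markers (horizontal axes, log2(sum + 1)) in the 13 libraries. Circles are tumors and blue symbols glands. Glands 1 and 3, with T cell sums of 458 and 429, lie apart from the other libraries in each panel, gland 2 lies near the tumors except for Ccl5, and tumor 1 has the highest Ccl19 and Ccl21a of the tumors.

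The ligands of CCR2 were not called. Ccl2 and Ccl7 are the first genes of a cluster of 5 listed ligand genes (Ccl2, Ccl7, Ccl11, Ccl12, Ccl8) that spans 81.2 kb of chromosome 11, with Ccl2 at 82035577 to 82037452 and Ccl7 at 82045712 to 82047525. The level of Ccl2 in tumors 1 to 10 was 5.76, 13.8, 6.74, 5.82, 7.63, 1.51, 12.9, 5.65, 8.42 and 1.63. Glands 1 to 3 were at 2.35, 1.55 and 3.17. In 8 of the 10 tumors Ccl2 was above all glands, and tumors 6 and 10 were at gland level. The tumors averaged 6.99 ± 4.05 (SD, n = 10) and the glands 2.36 ± 0.810 (SD, n = 3), which gave a log2 difference of 1.08 (SE 0.47, 95% interval 0.07 to 2.09, adjusted p = 0.0974). Ccl2 passed the call without tumor 6 (1.24, adjusted p = 0.0321), without tumor 10 (1.23, adjusted p = 0.0394) and with 1 mean per mouse (1.19, adjusted p = 0.0290).

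Ccl7, which acts on the same receptor, followed a similar pattern. In tumors 1 to 10 it was at 5.04, 11.3, 5.28, 4.27, 6.72, 0.850, 10.5, 4.59, 9.56 and 3.85. The 3 glands were at 1.28, 0.361 and 4.51 in the same order. Here 7 tumors were above all glands, and the other 3 (tumors 4, 6 and 10) were below gland 3 and above gland 2. The tumors averaged 6.20 ± 3.32 (SD, n = 10) and the glands 2.05 ± 2.18 (SD, n = 3), which gave a log2 difference of 1.31 (SE 0.50, 95% interval 0.25 to 2.38, adjusted p = 0.0586). Against gland 2 the difference was 2.23 (adjusted p = 0.0596) and against gland 3 it was 0.22 (adjusted p = 0.871). Without gland 3 the difference from the glands was 1.86 and was called (adjusted p = 0.0165), and without tumor 6 it was 1.51 (adjusted p = 0.0100). Without tumor 9 and gland 3 together (1.78, adjusted p = 0.0209) and with 1 mean per mouse (1.35, adjusted p = 0.0476) it was called as well. It was 1.225 without gland 1 (adjusted p = 0.182) and 0.85 without gland 2 (adjusted p = 0.316), neither of them called. With 1 mean per mouse Ccl7 was also called against gland 2 alone (2.27, adjusted p = 0.0221).

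The receptor Ccr2, carried by inflammatory monocytes, was at similar levels in tumors and in glands 1 and 2. It lies on chromosome 9 at 124101918 to 124109140. In tumors 1 to 10 it was at 14.2, 20.9, 9.44, 13.7, 7.98, 5.38, 14.3, 12.5, 5.92 and 4.74. In glands 1 to 3 it was at 13.1, 11.7 and 33.6. Gland 3 was above every tumor, whereas 4 tumors were above gland 1 and 5 above gland 2. The tumors averaged 10.9 ± 5.13 (SD, n = 10) and the glands 19.5 ± 12.3 (SD, n = 3), which gave a log2 difference of -0.75 (SE 0.40, 95% interval -1.62 to 0.11, adjusted p = 0.175). It was -0.37, -0.22 and -1.67 against glands 1, 2 and 3, with none called, it was not called in any fit without 1 library, and it was -0.23 (adjusted p = 0.695) without tumor 9 and gland 3 together.

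Ccl6 and Ccl8 had the highest levels per kilobase of the 10 transcripts in the tumors (values below), and they differed between the glands by the gland, but not in the way of the lymphoid genes. Ccl8 is the last gene of the cluster of Ccl2, at 82115185 to 82116799, and Ccl6 lies further along chromosome 11 in a second cluster with Ccl5, Ccl9, Ccl3 and Ccl4, at 83587886 to 83593087. Their promoters are shown because both transcripts were low in glands 1 and 2 and high in gland 3.
Ccl8 (chr11:82114935-82115234, plus strand): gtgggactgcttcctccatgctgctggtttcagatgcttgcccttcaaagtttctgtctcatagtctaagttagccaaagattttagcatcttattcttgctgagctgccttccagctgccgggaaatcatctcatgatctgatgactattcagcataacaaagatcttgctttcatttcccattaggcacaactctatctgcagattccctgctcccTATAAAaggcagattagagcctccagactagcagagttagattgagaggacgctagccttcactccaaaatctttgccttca
Ccl6 (chr11:83593038-83593337, minus strand): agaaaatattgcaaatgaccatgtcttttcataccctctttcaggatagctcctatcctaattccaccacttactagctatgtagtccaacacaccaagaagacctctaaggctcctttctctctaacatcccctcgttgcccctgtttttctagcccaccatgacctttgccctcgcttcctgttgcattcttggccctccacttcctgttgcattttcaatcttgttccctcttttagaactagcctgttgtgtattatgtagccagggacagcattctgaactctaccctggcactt
The window of Ccl8 held TATAAA 32 bases before the start, and that of Ccl6 held none of the 3 motifs.

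The level of Ccl8 in tumors 1 to 10 was 52.99, 44.8, 19.2, 19.5, 58.2, 7.08, 39.4, 30.01, 90.8 and 19.7. Glands 1 to 3 were at 4.67, 5.01 and 41.6. All 10 tumors lay above glands 1 and 2, whereas gland 3 lay above 6 of the tumors. The tumor mean of 38.2 ± 24.8 (SD, n = 10) was 8.18-fold and 7.62-fold above glands 1 and 2 and 1.09-fold below gland 3. The log2 difference was 1.51 (SE 0.67, 95% interval 0.07 to 2.94, adjusted p = 0.104) against all glands, with 2.50 (adjusted p = 0.0764), 2.42 (adjusted p = 0.0953) and -0.41 (adjusted p = 0.799) against glands 1, 2 and 3. Without gland 3 it was 2.46 and was called (adjusted p = 0.0103). It was also called without tumor 9 and gland 3 together (2.29, adjusted p = 0.00909) and without tumor 6 (1.73, adjusted p = 0.0394). Leaving out tumor 9 alone lowered the difference from all glands to 1.34, which was not called (adjusted p = 0.134). Tumors 9 and 6, the libraries with the most Rn45s, thus moved the difference in opposite directions when each was left out alone. With 1 mean per mouse Ccl8 was called against gland 1 (2.52, adjusted p = 0.00986) and gland 2 (2.43, adjusted p = 0.0136) but not against all glands (1.52, adjusted p = 0.0867).

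Ccl6 followed the same glands and was highest in tumor 9. In tumors 1 to 10 it was at 31.3, 68.05, 71.3, 36.2, 135, 21.6, 74.98, 59.3, 190 and 16.01. In glands 1 to 3 it was at 8.56, 10.3 and 87.2. Again all 10 tumors were above glands 1 and 2, and gland 3 was above 8 of the 10. The tumor mean of 70.4 ± 54.4 (SD, n = 10) was 8.22-fold and 6.82-fold above glands 1 and 2 and 1.24-fold below gland 3. The log2 difference was 1.39 (SE 0.72, 95% interval -0.16 to 2.93, adjusted p = 0.164) against all glands, and 2.54 (adjusted p = 0.0935), 2.29 (adjusted p = 0.137) and -0.67 (adjusted p = 0.689) against glands 1, 2 and 3. Without gland 3 it was 2.41 (adjusted p = 0.0173), and without tumor 9 and gland 3 together 2.22 (adjusted p = 0.0134), both called. It was 0.81 without gland 1 (adjusted p = 0.567) and 0.93 without gland 2 (adjusted p = 0.493), neither of them called. With 1 mean per mouse Ccl6 was called against gland 1 (2.46, adjusted p = 0.00778) and gland 2 (2.21, adjusted p = 0.0142) but not against all glands (1.31, adjusted p = 0.149).

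The macrophage markers, summed and mostly one by one, were alike in the glands. The sum of 8 macrophage markers was 327, 326 and 316 in glands 1 to 3 and 369 to 740 in the tumors (median 511). Of the 8, 1 (Cd68) was called higher (10.5% of all genes). Adgre1 (0.79, adjusted p = 0.0393), C1qa (0.74, adjusted p = 0.0027), C1qb (0.95, adjusted p = 0.000742) and C1qc (0.93, adjusted p = 0.0017) were higher by less than 2-fold. Csf1r (0.16), Mrc1 (-0.44) and Cd163 (-0.79) had adjusted p values of 0.124 to 0.725. The complement gene C1qa was at 107.7, 120 and 100.9 in glands 1 to 3, C1qb at 22.2, 20.6 and 21.5, C1qc at 58.1, 69.1 and 64.5, Adgre1 at 10.2, 11.98 and 12.8, and Cd68 at 18.2, 15.3 and 13.8. Cd163 was at 6.25, 6.25 and 4.27. Mrc1 (20.2, 23.2 and 59.3) was highest in gland 3, and Csf1r (83.9, 59.0 and 39.3), the receptor of macrophage growth factor, was lowest there. Of the other myeloid lists, the sum of 4 listed monocyte markers was 45.6, 32.4 and 152 in the glands and 18.1 to 104 in the tumors, with gland 3 and tumor 9 the highest of their groups. Its members went opposite ways, with Fcgr1 called higher (log2 difference 1.45, adjusted p = 0.000567), Ly6c2 called lower (-2.12, adjusted p = 0.000443), and F13a1 and Plac8 not called. The sum of 5 listed neutrophil markers was 3.92 to 49.3 in the glands and 302 to 3939 in the tumors. Of the 5, S100a8, S100a9 and Csf3r were called higher, whereas Cxcr2 (0.36, adjusted p = 0.669) and Retnlg (0.70, adjusted p = 0.122) were not. In the tumors S100a8 and S100a9 reached 2114 and 1757, against 53.8 for Csf3r, 11.5 for Cxcr2 and 2.735 for Retnlg. The sum is therefore mainly that of S100a8 and S100a9. Per 100 normalized cpm of the macrophage sum, Ccl8 was at 1.43, 1.54 and 13.1 in the glands and at 1.303 to 18.0 in the tumors. By the same measure Ccl6 was at 2.62, 3.17 and 27.6 in the glands and at 3.98 to 37.7 in the tumors, so that all tumors remained above glands 1 and 2. Ccr2 was at 4.02, 3.60 and 10.6 in the glands and at 0.990 to 4.40 in the tumors. The part of these cells in the differences was not tested.

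Ccl20, the epithelial ligand of CCR6, was low in both tissues (chromosome 1, 83116766 to 83119167). In tumors 1 to 10 it was at 3.36, 2.95, 3.48, 1.60, 1.94, 0.944, 8.60, 1.65, 1.14 and 1.33. The 3 glands were at 4.07, 4.34 and 6.83 in the same order. Tumor 7 lay above all glands and the other 9 tumors below all of them. The tumors averaged 2.70 ± 2.27 (SD, n = 10) and the glands 5.08 ± 1.52 (SD, n = 3), which gave a log2 difference of -0.86 (SE 0.39, 95% interval -1.69 to -0.03, adjusted p = 0.109). Without tumor 7 it was -1.03 and was called (adjusted p = 0.0128). The glands were alike here, with -0.63, -0.70 and -1.25 against glands 1, 2 and 3, none of them called. Tumor 7 also had the highest sum of squamous markers (3376, against 518 to 1933 in the other tumors). Its sum of the neutrophil list (3939), mainly that of S100a8 and S100a9, was the highest as well. The part of these cells was not tested. The promoter window of Ccl20 held a match to the NF-kB consensus on the opposite strand, 80 bases before the start.

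The normalization bears on the size of the differences. When each library was scaled to the epithelial markers instead, the median log2 difference over all genes moved to -0.78 against all glands and to -0.75, -0.31 and -1.27 against glands 1, 2 and 3. Under that scaling 778 genes were called higher and 5331 lower, against 1603 and 1538 as deposited, and Ccl20 and Ccr2 were called lower (-1.56 each) beside the other 4. Relative to the shifted median the differences from all glands were 1.19 for Ccl2, 1.46 for Ccl7, 1.49 for Ccl8, 1.35 for Ccl6, -0.79 for Ccl20 and -0.78 for Ccr2, close to those given above. Those of Ccl2 and Ccl7 against gland 3 changed sign under this scaling, to -0.38 and -0.95, and stood at 0.89 and 0.33 relative to the median.

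Among the tumors, 8 relations of the transcripts with each other or with a marker list were computed over mice, and none passed an adjusted p of 0.05. For Ccl2 and Ccl7, over the means of the 6 mice, Pearson's r of their log2 levels was 0.92 (exact permutation test over pairings, two-sided, p = 0.0111, adjusted p = 0.0889 over the 8 relations computed) and Spearman's rho was 0.77 (exact permutation p = 0.103, adjusted p = 0.274). Without the 2 mice farthest from the median of Ccl2, r was 0.60, so that the relation rests in part on those mice. This was the only one of the 8 with an unadjusted p below 0.05 for r. Ccl2 with Ccr2 had an r of 0.76 (exact permutation p = 0.0750, adjusted p = 0.300) and a rho of 0.83 (exact permutation p = 0.0583, adjusted p = 0.274). Ccl8 with Ccr2 had 0.28, and Ccl19 and Ccl21a with Ccr7 had 0.55 and 0.54. Ccl5 with the T cell list had 0.28, Ccr2 with the macrophage list 0.62 and Ccl6 with the macrophage list 0.49, with exact permutation p values between 0.25 and 0.607 for these 6 (adjusted p = 0.430 to 0.607). Their rho lay between -0.14 and 0.77. With the 2 mice farthest from the median of the first measure left out of each, r over the remaining 4 mice was 0.95 for Ccl2 with Ccr2, 0.09 for Ccl8 with Ccr2, 0.13 for Ccl19 with Ccr7 and -0.57 for Ccl21a with Ccr7. It was -0.68 for Ccl5 with the T cell list, -0.20 for Ccr2 and 0.90 for Ccl6 with the macrophage list, so that 3 of the relations changed sign.

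Tumors of the same mouse were not more alike in the myeloid ligands than tumors of different mice. The median difference between tumors of the same mouse, over 5 pairs, was 1.83 on the log2 scale for Ccl6, 1.57 for Ccl8, 1.34 for Ccl2 and 0.97 for Ccl7, against 1.11, 1.00, 0.81 and 0.71 over the 40 other pairs. Tumors 5 and 6 came from 1 mouse, and so did tumors 9 and 10, and in both pairs the first was high and the second low in all 4 ligands. Without tumor 9, which is in 2 of the 5 pairs, the medians over 3 pairs were 1.83, 1.18, 1.34 and 0.97 for Ccl6, Ccl8, Ccl2 and Ccl7, against 0.98, 0.98, 1.04 and 0.68 over 33 others. For Ccl20 and Ccl5 the order was the other way, with 0.18 and 0.09 within mice against 0.75 and 0.35, and without tumor 9 against 0.75 and 0.25. These are descriptions of few pairs, which share tumors.

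**Figure D4:**
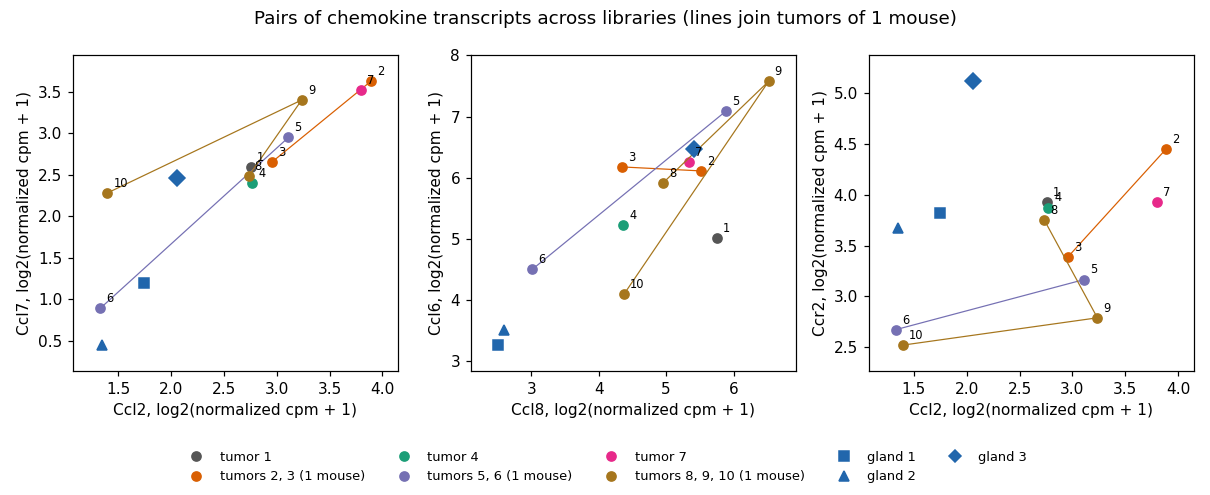
Pairs of transcripts in the 13 libraries, each axis as log2(normalized cpm + 1): Ccl7 against Ccl2, Ccl6 against Ccl8 and Ccr2 against Ccl2. Numbered circles are tumors, lines join tumors of the same mouse, and blue symbols are glands. Tumors 5 and 9 lie above tumors 6 and 10 of the same mice in Ccl2, Ccl7, Ccl8 and Ccl6.

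The genes whose levels ran most closely with the 5 better expressed transcripts over the 10 tumors were listed by Pearson's r among 11696 genes, as a description without a test. For Ccl2 they were Ccl7 (0.89), the interferon-inducible Ifi203 (0.88) and the folate receptor gene Folr2 (0.88). For Ccl7 they were Kctd9 (0.89), Ccl2 (0.89) and the neutrophil chemokine Cxcl1 (0.88). For Ccl8 they were Spopl (0.96), the macrophage mannose receptor Mrc1 (0.96) and Cd302 (0.95). For Ccl6 they were the myeloid receptor Cd300lf, Crip1 (0.93 each) and the nuclear RNA Malat1 (0.91). For Ccr2 they were Pik3r3 (0.95), Naaa (0.92) and Slc26a2 (0.88). Without tumor 9 the r of these 15 pairs lay between 0.866 and 0.957, but the lists changed, with 1 of the 3 genes named still among the first 3 for Ccl2 and Ccl7 and 2 of the 3 for Ccl6, Ccl8 and Ccr2. Tumors of the same mouse and the depth of each library are shared by these points.

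Levels can be set between genes only per length, and per kilobase of exon the order in the tumors ran from ligands of myeloid cells to lymphoid genes. The tumor mean of normalized cpm per kilobase was 74.7 ± 48.5 for Ccl8 and 39.2 ± 30.3 for Ccl6 (SD, n = 10), whose ranges overlapped. It was 7.74 ± 4.14 for Ccl7 and 6.14 ± 3.56 for Ccl2, again overlapping. Below these came Ccl5 with 2.06 ± 0.551, Ccl20 with 1.90 ± 1.60 and Ccr2 with 1.61 ± 0.758, whose ranges overlapped, and by median Ccr2 (1.62) lay above Ccl20 (1.26). The length used joins all annotated exons of a gene, and was 6760 bases for Ccr2, 960 for Ccl5 and 1421 for Ccl20. The place of Ccr2 depends on this choice of length. Last came Ccr7 with 0.903 ± 0.340, Ccl21a with 0.856 ± 2.07 and Ccl19 with 0.836 ± 1.00, and by median the order of these was Ccr7 (0.830), Ccl19 (0.532) and Ccl21a (0.133). In gland 1 the lymphoid genes and Ccl5 came first, with 106 for Ccl21a, 73.2 for Ccl5, 40.1 for Ccl19 and 31.8 for Ccr7 per kilobase, against 9.13 for Ccl8 and 4.77 for Ccl6. In gland 2, Ccl8 (9.80), Ccl5 (6.99) and Ccl6 (5.75) came first, and Ccl19 was last at 0 reads. Gland 3 had both groups high, with 81.4 for Ccl8, 64.5 for Ccl5, 58.0 for Ccl21a, 48.6 for Ccl6, 38.5 for Ccl19 and 34.6 for Ccr7 per kilobase.

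The 10 transcripts belong to a list of 39 mouse genes of CC ligands, receptors and atypical receptors, of which 31 were analysed. Of these 31, 4 were called higher, 9 lower and 18 neither, with a median log2 difference of -0.11. Over all genes 10.5% were called higher and 10.1% lower, and the count called higher here was near that share. All 4 that rose and 5 of the 9 that fell lay outside the 10. Those that rose were Ccr1, Ccl3, Ccl4 and the epithelial ligand Ccl28. Against single glands, of these only Ccl4 was called against gland 1 (2.68, adjusted p = 0.0388), only Ccr1 against gland 2 (2.95, adjusted p = 0.0251) and none against gland 3, with differences from gland 3 of 1.14 for Ccr1, 1.83 for Ccl3, 1.23 for Ccl4 and 1.61 for Ccl28. Those that fell beside the 4 above were Ccl11, Ccl22, Ccl21b, Ccr6 and Ackr4, of which Ccl21b shares reads with Ccl21a and is not a separate observation. Against single glands, Ccl22, Ccl21b and Ccr6 were called lower against glands 1 and 3, Ccl11 against gland 3 only (-2.69, adjusted p = 0.0360) and Ackr4 against none. The differences of Ccl22, Ccl21b and Ccr6 from gland 2 were -0.19 (adjusted p = 0.879), 0.17 (adjusted p = 0.775) and -0.11 (adjusted p = 0.884). Without tumor 9 and gland 3 together, Ccr1 (2.48), Ccl3 (2.13) and Ccl4 (2.37) were still called. Ccl28 (1.54, adjusted p = 0.108), Ccl11 (-1.39), Ccl22 (-2.04), Ccl21b (-1.62), Ccr6 (-1.10) and Ackr4 (-1.26) were not, with adjusted p values of 0.0525 to 0.0843 for the 5 that had fallen. With 1 mean per mouse Ccl28 alone of these 9 lost its call (1.23, adjusted p = 0.122).

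Ccr1, a receptor of myeloid cells for CCL3, CCL5 and CCL6 among others, was at 16.1 to 128 in the tumors (median 39.3) and at 7.45, 4.60 and 18.6 in the glands. Its log2 difference was 2.15 (SE 0.52, adjusted p = 0.00559), with 9 of 10 tumors above all glands. Ccr6, the receptor of CCL20, was at 0.00 to 1.62 in the tumors and at 7.15, 0.826 and 5.61 in the glands, so that it followed the split of the lymphoid genes (log2 difference -1.45, SE 0.38, adjusted p = 0.00935). Ccr8, a receptor of CCL8 in the mouse, was not analysed here.

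Ccl3 and Ccl4, inflammatory ligands made by macrophages among other cells, lie in the cluster of Ccl5 and Ccl6 but rose in the tumors. Ccl3 was at 1.78 to 16.5 in the tumors and at 0.771, 0.310 and 0.9753 in the glands, and all 10 tumors lay above all glands, as 11.4% of all genes did. Its log2 difference was 2.08 (SE 0.49, adjusted p = 0.00488), and that of Ccl4 was 2.05 (SE 0.52, adjusted p = 0.00734). Within this cluster of 138.9 kb, then, Ccl3 and Ccl4 were called higher, Ccl5 lower, and Ccl6 and Ccl9 neither. The cluster of Ccl2 was mixed as well, with Ccl11, the ligand of the eosinophil receptor CCR3, called lower (4.45 ± 3.00 in the tumors, SD, n = 10, and 11.3, 11.4 and 29.3 in the glands, log2 difference -1.83, SE 0.50, adjusted p = 0.0123) and Ccl2, Ccl7, Ccl8 and Ccl12 not called. Ccl12, like Ccl7 and Ccl8, was called higher without tumor 9 and gland 3 together (1.67, adjusted p = 0.0324).

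Ccl22, a ligand of CCR4 made by mature dendritic cells, was at 0.228 to 5.003 in the tumors and at 46.9, 2.07 and 29.8 in the glands (log2 difference -2.62, SE 0.67, adjusted p = 0.00768), which is the split of Ccr7 and Ccl19. Of 4 listed dendritic cell markers, Zbtb46 (log2 difference -1.82, adjusted p = 2.42e-06) and Clec9a (-1.53, adjusted p = 6.03e-05) were called lower, Itgax (1.58, adjusted p = 0.000141) higher and Cd209a neither. Their sum was 28.5, 26.5 and 25.97 in glands 1 to 3 and 30.8 to 61.8 in the tumors, so that it did not show the split between the glands. Of 5 fibroblast markers, 3 (Col1a1, Col3a1 and Lum) were called lower and none higher, with sums of 3283, 3758 and 3689 in the glands and 305 to 949.9 in the tumors. The part of these cells in the genes that fell was not tested. Ackr4, the scavenger receptor that binds CCL19 and CCL21, did not show it. It was at 1.42 to 7.52 in the tumors and at 9.03, 13.7 and 11.95 in the glands, a log2 difference of -1.25 (SE 0.38, adjusted p = 0.0207). Ccl28 was at 0.840 to 17.8 in the tumors and at 0.620 to 1.54 in the glands (log2 difference 1.59, SE 0.57, adjusted p = 0.0456).

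**Figure D5:**
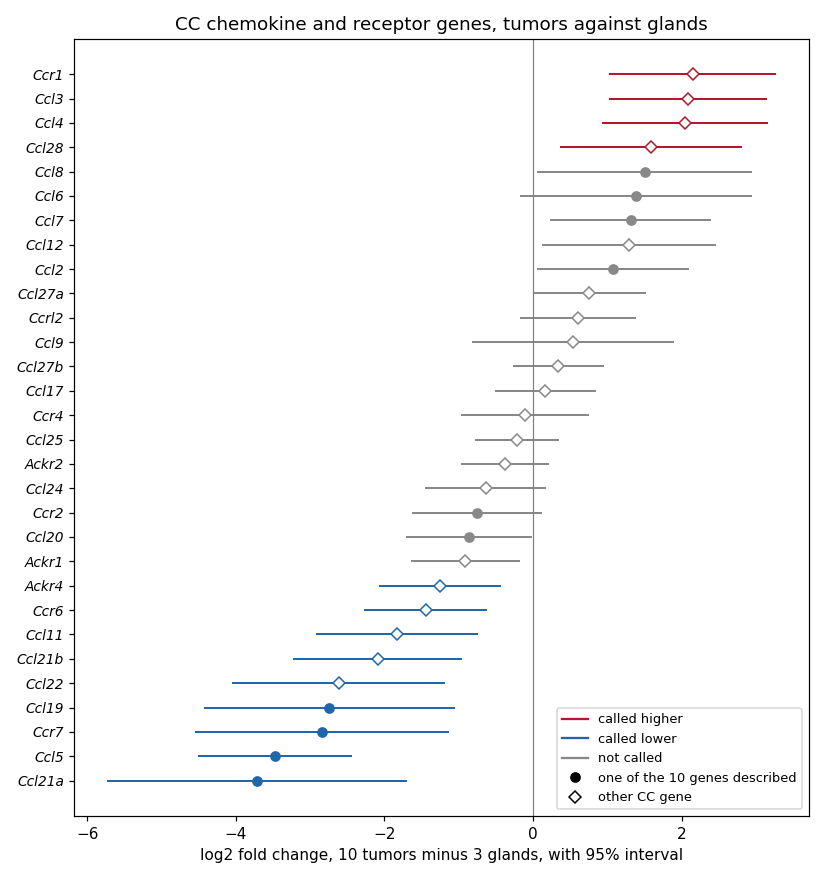
Log2 difference of the 10 tumors from the 3 glands with its 95% interval for 30 CC chemokine and receptor genes, ordered by size. Filled circles are the 10 transcripts described, open diamonds the other genes, red marks those called higher (4), blue those called lower (9) and grey those not called (17).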

How the data were processed

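Total RNA of 10 tumors and 3 glands was sequenced as paired-end reads. Per the labels and the study's methods, reads were mapped to mm10 with Rsubread, counted per gene with featureCounts and normalized with edgeR, and the strand setting is not given in the sources used here. The signal values deposited by the authors are normalized cpm: in each library 100% of them were whole multiples of the value of 1 read (tolerance 0.05), from which reads were recovered.

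The 10 transcripts and all gene lists were chosen with earlier results of these data known. Log2(normalized cpm + 1) of all 15213 listed genes was fitted with limma 3.58.1 (R 4.3.3, variance trend, condition as the only term), with Benjamini-Hochberg adjustment over all of them. A gene was called at an FDR below 0.05 and a change over 2-fold. Log2 differences and their tests are on this scale, which understates the change of low genes, whereas folds written as such are ratios of normalized cpm itself. No filter on low values was applied, because the study's own, which leaves out genes at 5 or less in the majority of libraries, is set by the 10 tumors. Tumors were taken as separate samples, and p-values measure the spread between these samples. The tests against all glands were checked on simulated data, and those against single glands were not.

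On the recovered reads, edgeR 4.0.16 called 1830 genes higher and 1715 lower, and DESeq2 1.42.0 called 2038 and 1716, with limma at 1603 and 1538. Other alternatives were pseudocounts of 0.25 and 5, the study's filter, scaling to epithelial genes, means or blocks per mouse, a replicate block, summed Ccl21 copies and leaving out libraries. Leaving out tumor 9 and gland 3 together, and tumor 9 from the same-mouse differences and the lists of genes most alike, was chosen after seeing the data. Named beside the 10 were genes of the CC list that were called, the receptors Ccr1 and Ccr6, and the 3 genes with the highest Pearson r over the tumors for each transcript above 5 in at least 6 tumors; Ccl9 and Ccl12 were added to describe the gene clusters. A gene of the CC list is counted but not reported here. Marker genes were named only beside a result. Levels per kilobase used GENCODE M21 exons, and coordinates are those of RefSeq GRCm38.p6. Cell type markers not analysed here were Chst4, Fdcsp, Clec4g, Mmrn1, Flt3, Xcr1, Chil3 and Ly6g.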

Additional observations from a re-analysis of the deposited data

Results flagged for a closer look

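Among the 10 tumors, 5 of the 10 transcripts had 1 tumor whose gap to its neighbor, relative to the range of the log2 levels, passed Dixon's 95% limit. Chance gives such a gap in about 1 of 20 groups tested, and tumors of the same mouse are not independent. Ccl19 and Ccl21a were highest in tumor 1, at 3.12 and 5.82 normalized cpm, against 0.105 to 0.824 and 0.00 to 0.741 in the other tumors. Tumor 1 also had the highest sums of B cell (128) and T cell (47.6) markers of the tumors. Ccl20 was highest in tumor 7, at 8.60 against 0.944 to 3.48. Ccl7 was lowest in tumor 6, at 0.850 against 3.85 to 11.3, where Ccl2 was also lowest (1.51). Ccr7 was lowest in tumor 8, at 0.471 against 1.41 to 2.76, a value of 4 reads.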

How the results depend on the processing

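The 10 transcripts had 0 called higher and 4 lower against all glands. The count called higher was 2 with 1 mean per mouse, 2 by DESeq2, 2 without the mouse of tumors 5 and 6, 3 without tumor 9 and gland 3, and 0 to 3 when 1 library was left out (3 without tumor 6 or gland 3, 1 without tumor 10). The count called lower was 0 of 4 under the study's filter, which leaves out the 4 transcripts called, 2 with 1 mean per mouse, 1 without tumor 9 and gland 3, and 1 to 5 without 1 library (1 without gland 1, 2 without gland 3). With the replicate block, 1 transcript of the 10 was called lower, and of the CC list 2 were called higher and 1 lower, where all genes gave 547 and 564. The replicate numbers share only a number between different mice, and the deviations of same-numbered libraries correlated at -0.579, 0.0447 and -0.664. Of the CC list (4 higher, 9 lower), 1 was called higher and 2 lower under the filter, and 8 higher and 8 lower by DESeq2. Under epithelial scaling 2 were called higher and 13 lower, where all genes gave 778 and 5331. Leaving out tumor 9 and gland 3 gave 7 higher and 1 lower. Leaving out 1 library gave 2 to 8 higher and 3 to 10 lower (2 and 3 without gland 1, 8 and 5 without gland 3, 7 higher without tumor 6). Against single glands, means per mouse called 2 higher for gland 1 and 3 for gland 2, the filter left 0 lower for each gland, and a pseudocount of 5 left 0 lower for gland 2. With all 10 tumors as points, 1 relation (Ccl2 with Ccl7) passed. No called log2 difference changed sign, and of 357 values under alternatives 316 kept their side of the call, 26 passed it newly and 15 lost it. The cause was not tested. Depth limits Ccl19 and Ccl21a in the tumors, at medians of 4 and 1 reads.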
